A study of Mus musculus with 12 samples.

Results

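The cardiomyocyte sarcomere genes described here are 10 genes that encode the force-producing fibre of heart muscle: the troponins Tnnt2, Tnni3, Tnni1 and Tnnc1, the cardiac actin Actc1, the myosin heavy chains Myh6 and Myh7, the atrial and embryonic myosin light chain Myl4, the alpha-actinin Actn2 and the titin gene Ttn. They were taken by gene symbol from the table of all genes, and all 10 were found among its 34174 genes. RNA was measured in cultures of mouse cardiac stem cells from C57BL/6 animals, of 2 genotypes that the labels call wild-type and c-kitCre, the second with the Cre recombinase gene knocked into the Kit locus. No treatment is given, and cells of both genotypes grew on gelatin-coated dishes, in medium with 10% serum and 21% oxygen. The labels give no age or sex of the animals, number 3 cultures per genotype and do not say whether those came from separate animals or from 1 clone, so p-values measure only the spread between these cultures.

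Each culture had 2 libraries, 12 in all, and the tables used here hold 1 merged value per culture, with summed raw values from 22371439 to 35963488. Levels are given as scaled reads, a culture's raw value times the scale factor contained in the authors' normalised values, and as scaled reads per kilobase of transcript where genes are compared with each other. Kit, the targeted gene, was at 1.17 to 3.38 scaled reads in the 3 wild-type cultures and at 1603 to 1738 in the 3 c-kitCre cultures, although a Cre insertion disrupts the gene. This goes against the labels, so the groups are named by their labels only, as wild-type-labelled and c-kitCre-labelled cultures, and each direction rests on those labels.

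In a sarcomere, thick filaments of myosin pull on thin filaments of actin. Troponin, which sits on the thin filament with tropomyosin, lets this happen only when calcium binds: troponin C (Tnnc1) binds the calcium, troponin I (Tnni1, Tnni3) holds the filament off, and troponin T (Tnnt2) ties the complex to tropomyosin. Alpha-actinin anchors the thin filaments in the Z-disc, and titin runs from the Z-disc to the middle of the thick filament as a spring. Tnni1 is the slow skeletal troponin I, which the mouse heart uses before birth and replaces with the cardiac form Tnni3. Myh7 and Myh6 stand in a similar order in the mouse ventricle, with Myh7 before birth and Myh6 in the adult.

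The 3 members that passed the test between the genotypes were troponins. Tnnt2 was lower, and Tnni1 and Tnnc1 were higher, in c-kitCre-labelled cultures, though Tnnc1 lost its call in 8 of 17 alternative analyses. The other 7 members did not pass the test. The sequences before the starts of these 3 genes are shown because the genes moved in different directions. They are the 250 bases upstream of the RefSeq start, 5′ to 3′ on the gene's strand, from GRCm38.p6, the assembly also called mm10. Capitals mark the letters GATA, bound by GATA factors, and CATTCC, the core of the muscle motif bound by TEAD factors, on either strand. The windows are chr1:135836084-135836333 for the more upstream of the starts of Tnnt2, chr1:135799171-135799420 for the more upstream start of Tnni1 and chr14:31208062-31208311 for Tnnc1, all on the plus strand. The Tnni1 window lies inside the gene's range in the GENCODE annotation, 135779434 to 135810989, which begins upstream of both RefSeq starts.
Tnnt2: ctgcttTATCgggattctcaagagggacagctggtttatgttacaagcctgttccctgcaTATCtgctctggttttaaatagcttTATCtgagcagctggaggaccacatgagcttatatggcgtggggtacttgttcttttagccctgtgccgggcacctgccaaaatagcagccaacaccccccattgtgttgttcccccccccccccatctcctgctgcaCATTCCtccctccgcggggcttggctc
Tnni1: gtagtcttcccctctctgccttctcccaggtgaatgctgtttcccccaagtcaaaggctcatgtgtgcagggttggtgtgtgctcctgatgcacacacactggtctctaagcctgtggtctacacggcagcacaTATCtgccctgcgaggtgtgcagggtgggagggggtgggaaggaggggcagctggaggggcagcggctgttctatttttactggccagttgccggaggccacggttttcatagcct
Tnnc1: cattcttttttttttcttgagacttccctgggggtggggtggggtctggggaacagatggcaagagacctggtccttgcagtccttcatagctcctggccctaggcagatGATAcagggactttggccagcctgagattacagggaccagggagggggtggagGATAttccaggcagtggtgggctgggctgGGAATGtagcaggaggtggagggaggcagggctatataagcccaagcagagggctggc

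The upstream window of Tnnt2 held GATA 3 times and CATTCC 1 time, that of Tnni1 held GATA 1 time and no CATTCC, and that of Tnnc1 held GATA 2 times and CATTCC 1 time. All 10 members had RefSeq starts, 13 windows in all, and both strands were searched. GATA was found in 8 of the 13 windows, where 53.6% of 32841 mouse promoters of the same length hold it. CATTCC was found in 4 of the 13, where 12.6% do. By gene, with a match in any window counted, GATA stood before 6 of the 10 members and CATTCC before 4. CANNTG, the E-box letters bound by basic helix-loop-helix factors, was found in 11 of the 13 windows, against 66.2% of promoters. It stood before 8 members and is not capitalised. In the Tnnc1 window a GATA and a CANNTG overlapped, and the Tnnt2 and Tnni1 windows had no such overlap. The CArG box, bound by serum response factor, was found only before Actc1 (1.47% of promoters), the MEF2 motif only before Ttn (1.69%), and TATAAA before none (12.4%). These matches describe letters in a window and not binding.

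Tnnt2 (ENSMUSG00000026414, mm10 chromosome 1, 135836354 to 135852260, plus strand), troponin T of the heart, stood at 3608, 1458 and 1517 scaled reads in wild-type-labelled cultures, against 123.6, 123.9 and 119.5 in c-kitCre-labelled ones. The lowest culture of the first group lay far above the highest of the second, and culture 1 was the high one among wild-type-labelled ones. Group means were 2194 ± 1224 and 122 ± 2.43 scaled reads (SD, n = 3), 17.9-fold lower in c-kitCre-labelled cultures. The log2 difference was -4.03 ± 0.36 (SE; limma, Benjamini-Hochberg adjusted p = 0.000548), and the gene was called lower in every alternative tried, with log2 differences from -4.38 to -3.60. Per kilobase, its level of 1829 ± 1020 put it at percentile 95.3 of 20466 protein-coding genes in wild-type-labelled cultures, and 102 ± 2.03 put it at percentile 57.1 in the others. In bulk RNA of this kind, fewer cells of a type and less RNA per cell cannot be told apart.

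Tnni1 (ENSMUSG00000026418, chromosome 1, 135779434 to 135810989, plus strand) went the other way. It stood at 26.1, 1.77 and 2.36 scaled reads in wild-type-labelled cultures, against 141, 146 and 107 in c-kitCre-labelled ones. Each of the latter lay above each of the former, and culture 1 was again the high one among wild-type-labelled ones. Group means were 10.1 ± 13.9 and 131 ± 21.1 scaled reads (SD, n = 3), 13.0-fold higher in c-kitCre-labelled cultures, and without wild-type culture 1 the first mean was 2.06. The log2 difference was 4.03 ± 0.74 (SE; limma, adjusted p = 0.00765) and stayed called in every alternative (3.55 to 4.88). The authors raise low normalised values to a floor of 4.41 scaled reads, so wild-type cultures 2 and 3 enter this difference near the floor and not at their own level. Per kilobase the level was 8.76 ± 12.1 (percentile 40.6) in wild-type-labelled cultures and 114 ± 18.3 (percentile 58.7) in the others.

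**Figure D1:**
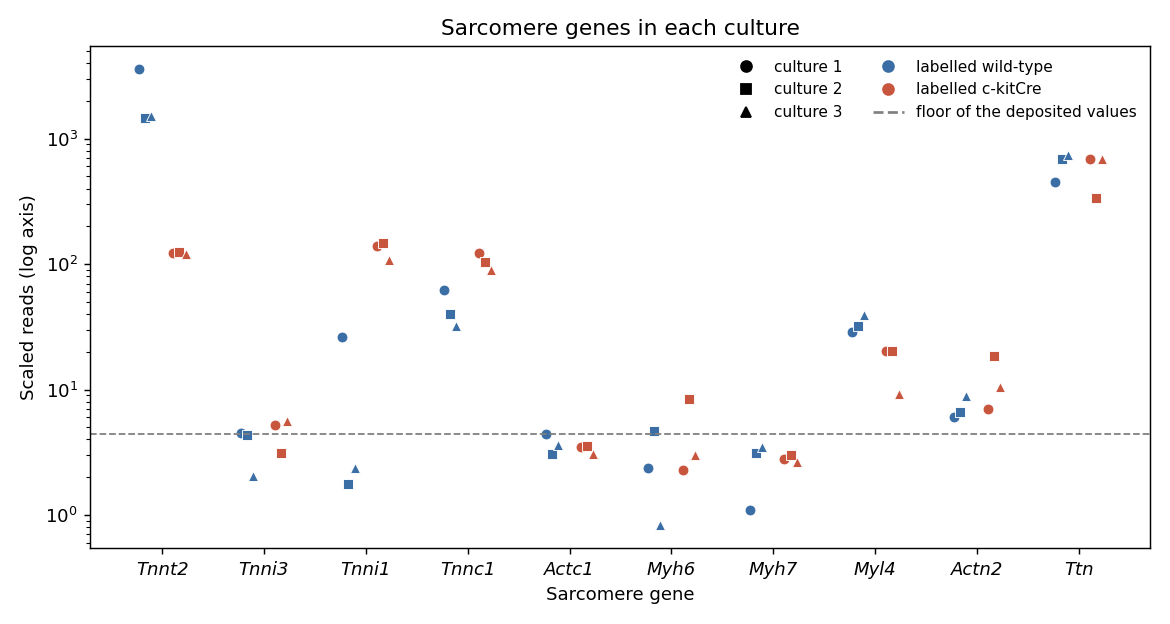
Scaled reads (log axis) of the 10 sarcomere genes in each of the 3 wild-type-labelled cultures (blue) and the 3 c-kitCre-labelled ones (red), 1 point per culture, with the floor of the deposited normalised values, 4.41 scaled reads, as a dashed line. Tnnt2 is lower and Tnni1 higher in all red points, and most values of Tnni3, Actc1, Myh6 and Myh7 lie near or under the line.

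Tnni1 and Tnnt2 are neighbours on chromosome 1, on the same strand, with 25364 bases between them. The 1 gene between them, Lad1, was at 4.01 scaled reads in wild-type-labelled cultures and 7.72 in the others and did not pass the test (limma, adjusted p = 0.156). Beyond Tnnt2 lies Pkp1, a plakophilin of desmosomes, which was higher in c-kitCre-labelled cultures (25.1 ± 3.72 and 274 ± 25.0 scaled reads; SD, n = 3; limma, adjusted p = 0.000291). On the far side of Tnni1, Phlda3 and Csrp1 did not pass the test (limma, adjusted p = 0.0520 and 0.372). Neighbouring genes in this stretch thus had opposite calls.

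Tnnc1 (ENSMUSG00000091898, chromosome 14, 31208312 to 31211729, plus strand), troponin C of heart and slow muscle, stood at 62.3, 40.1 and 31.9 scaled reads in wild-type-labelled cultures, against 123, 104 and 90.2 in c-kitCre-labelled ones, without overlap. Group means were 44.8 ± 15.7 and 106 ± 16.6 scaled reads (SD, n = 3), 2.37-fold higher in c-kitCre-labelled cultures, and the log2 difference was 1.29 ± 0.34 (SE; limma, adjusted p = 0.0298). This call was lost in 8 of 17 alternatives, among them leaving out wild-type culture 2 (adjusted p = 0.106) or 3 (0.0994) or c-kitCre culture 1 (0.0968), 2 (0.0688) or 3 (0.065). The gene lies wholly inside Nisch on the opposite strand (chromosome 14, 31170930 to 31216946), which was higher too, at 8470 ± 263 and 16796 ± 1785 scaled reads (limma, adjusted p = 0.00281). Tnnc1 amounted to 0.365 to 0.738% of the Nisch value in wild-type-labelled cultures and to 0.554 to 0.775% in the others. Whether reads were counted by strand is not given in the sources used here, so reads of Tnnc1 and Nisch cannot be told apart.

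Tnni3 (ENSMUSG00000035458, chromosome 7, 4518305 to 4524229, minus strand), the adult cardiac troponin I, stayed near the floor, at 4.49, 4.37 and 2.03 scaled reads in wild-type-labelled cultures and 5.26, 3.10 and 5.61 in c-kitCre-labelled ones. The groups overlapped in scaled reads. The log2 values that were tested did not overlap, at 2.25, 2.22 and 2.14 against 2.57, 2.40 and 2.49. Culture ranks thus differed between the 2 measures. The log2 difference of 0.28 ± 0.09 (SE; 95% interval 0.06 to 0.50) did not pass the test (limma, adjusted p = 0.0554). It passed in 3 of 16 alternatives. These were no filter on low values (limma, adjusted p = 0.0259), centring on genes of at least 50 scaled reads (0.0151) and leaving out c-kitCre culture 2 (0.0142). Its sign turned to -0.07 with centring over all genes. Since values near the floor enter the test, the interval leaves out spread below the floor. Unfloored scaled reads with 0.1, 1 or 5 added before the log gave an SE of 0.589, 0.456 and 0.238 (limma, adjusted p = 0.634, 0.623 and 0.609). The range of Tnni3 overlaps that of Dnaaf3, at 16.3 ± 1.31 and 8.20 ± 3.95 scaled reads. Tnni1 made up 85.3, 28.8 and 53.7% of the reads of both troponin I genes in wild-type-labelled cultures, where wild-type cultures 2 and 3 had under 10 such reads, and 96.4, 97.9 and 95% in the others.

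The proportions of the troponin subunits were read from these levels. Per kilobase, Tnnt2 stood at 34.8, 21.9 and 28.6 times the level of Tnnc1 in wild-type-labelled cultures, against 0.602, 0.712 and 0.796 times in c-kitCre-labelled ones. Against both troponin I genes together, Tnnt2 stood at 109, 192 and 296 times in the first group and at 0.805, 0.791 and 1.00 times in the second. In c-kitCre-labelled cultures the 3 subunits of a troponin complex were thus at levels within 1.66-fold of Tnnt2, whereas in wild-type-labelled ones Tnnt2 stood at 21.9 times Tnnc1 or more. These ratios rest on transcript lengths from the annotation, and no test was run on them. In wild-type cultures 2 and 3 both troponin I genes lay under the floor. Tnni1 was at 1.77 and 2.36 scaled reads there and Tnni3 at 4.37 and 2.03, so the ratios of 192 and 296 are uncertain in size. The ratios to Tnnc1 are limited too, since its reads cannot be told apart from those of Nisch. Tnnt2 made up 91.8 to 95.1% of the summed per-kilobase level of the 10 members in wild-type-labelled cultures and 23.7 to 28.7% in the others.

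Actc1 (ENSMUSG00000068614, chromosome 2, 114047282 to 114053548, minus strand), the actin of the cardiac thin filament, stood at 4.45, 3.07 and 3.62 scaled reads in wild-type-labelled cultures, against 3.51, 3.55 and 3.07 in c-kitCre-labelled ones. The groups overlapped (log2 difference -0.10 ± 0.11, SE; 95% interval -0.37 to 0.16; limma, adjusted p = 0.487). All values enter the test at or near the floor, so this interval leaves out spread below it. Unfloored scaled reads with 0.1, 1 or 5 added before the log gave an SE of 0.525, 0.4 and 0.202. Of the reads of 6 actin genes Actc1 made up 0.00208 ± 0.000265% and 0.0020 ± 0.000275% (SD, n = 3; exact two-sided permutation p = 0.5, adjusted over 2 shares 0.5). A530058N18Rik, which spans Actc1 on the other strand, was higher in c-kitCre-labelled cultures (3.27 ± 1.29 and 80.5 ± 70.9 scaled reads; limma, adjusted p = 0.00786). Actin genes resemble each other in their coding sequence, and how any shared reads were assigned is not given, so values this low are uncertain.

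The thick filament members gave no call. Myl4 (ENSMUSG00000061086, chromosome 11, 104550663 to 104595753, plus strand) stood at 28.5, 32.2 and 39.3 scaled reads in wild-type-labelled cultures, against 20.2, 20.1 and 9.20 in c-kitCre-labelled ones. The groups did not overlap, with means of 33.3 ± 5.50 and 16.5 ± 6.33 (SD, n = 3), but the log2 difference of -1.09 ± 0.40 (SE; 95% interval -2.06 to -0.12) had an adjusted p of 0.0814 in limma. It passed the test under quantile normalisation (adjusted p = 0.028) and under centring over all genes (0.0283), so that its call depends on the scaling.

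Myh6 (ENSMUSG00000040752, chromosome 14, 54941921 to 54966927, minus strand) stood at 2.39, 4.69 and 0.825 scaled reads in wild-type-labelled cultures, against 2.29, 8.40 and 2.99 in the others. Culture 2 was the high one in each group, and without it the means of 2.63 and 4.56 became 1.61 and 2.64. Myh7 (ENSMUSG00000053093, chromosome 14, 54970684 to 54994626, minus strand), its neighbour, stood at 1.09, 3.14 and 3.50 scaled reads and at 2.81, 3.03 and 2.64. The log2 differences were 0.23 ± 0.27 for Myh6 (SE; 95% interval -0.42 to 0.88; limma, adjusted p = 0.541) and -0.04 ± 0.09 for Myh7 (SE; 95% interval -0.25 to 0.17; limma, adjusted p = 0.756). Most values of both genes enter the test at or near the floor, so these intervals leave out spread below it. Unfloored scaled reads with 0.1, 1 or 5 added before the log gave an SE of 0.829, 0.599 and 0.305 for Myh6. For Myh7 the SE was then 0.667, 0.464 and 0.215. The levels per kilobase of the 2 genes, 0.41 to 0.75 as group means, were the lowest of the members. Myh7 made up 31.3, 40.1 and 80.9% of the reads of the pair in wild-type-labelled cultures and 55.1, 26.5 and 46.9% in the others, at 3.48 to 11.4 reads in all.

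Ttn (ENSMUSG00000051747, chromosome 2, 76703980 to 76982547, minus strand) has a transcript of 106824 bases, by far the longest of the members. It stood at 454, 684 and 739 scaled reads in wild-type-labelled cultures, against 684, 336 and 685 in c-kitCre-labelled ones, with overlap and with c-kitCre culture 2 as the low one. The log2 difference was -0.18 ± 0.34 (SE; 95% interval -1.02 to 0.65; limma, adjusted p = 0.705), and without c-kitCre culture 2 it was 0.16. Per kilobase, Ttn stood at 5.86 ± 1.42 and 5.32 ± 1.89, close to Tnni3 at 3.98 ± 1.52 and 5.11 ± 1.49. This closeness comes from dividing by the long Ttn transcript. In scaled reads, Ttn lay far above the floor in every culture, while Tnni3 stayed near it.

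Actn2 (ENSMUSG00000052374, chromosome 13, 12269426 to 12340760, minus strand), the alpha-actinin of cardiac and skeletal Z-discs, stood at 6.05, 6.63 and 8.89 scaled reads in wild-type-labelled cultures, against 6.98, 18.6 and 10.5 in c-kitCre-labelled ones. The groups overlapped (log2 difference 0.59 ± 0.37, SE; 95% interval -0.31 to 1.48; limma, adjusted p = 0.269). Its share of the reads of 4 alpha-actinin genes was 0.0557, 0.0487 and 0.0573% in the first group and 0.0676, 0.163 and 0.102% in the second. Those shares did not overlap, and the exact two-sided permutation p of 0.1 (adjusted over 2 shares 0.2) is the smallest that 3 cultures against 3 allow.

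**Figure D2:**
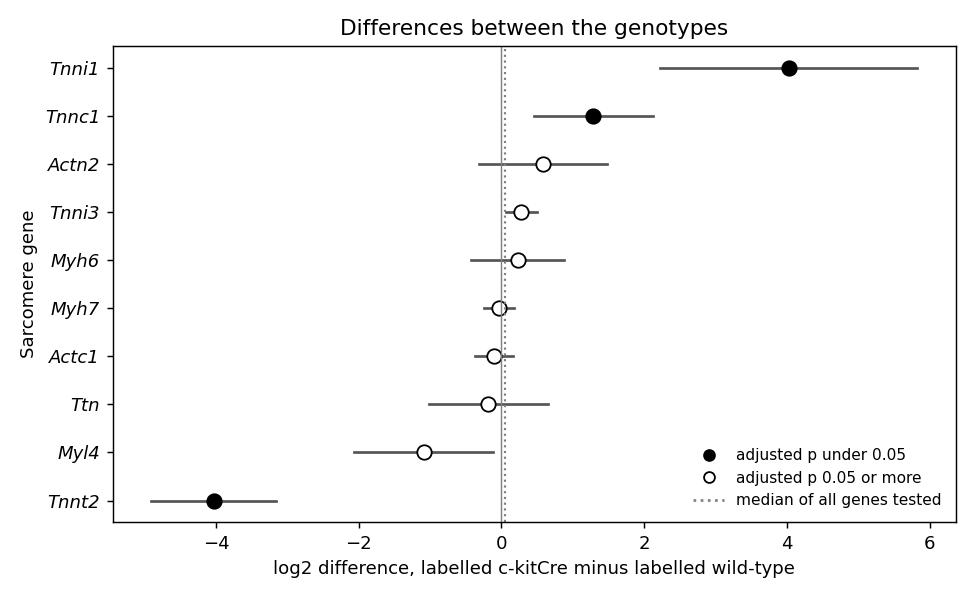
Log2 difference of the 10 sarcomere genes, c-kitCre-labelled minus wild-type-labelled cultures (3 cultures each; limma estimates, lines are 95% intervals), with the median of all genes tested, 0.04, as a dotted line. Tnnt2 at -4.03 and Tnni1 at 4.03 lie farthest from 0, and filled points passed an adjusted p under 0.05. Most values of Tnni3, Actc1, Myh6 and Myh7 entered the test at or near the floor, so their intervals leave out spread below it.

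All 10 members could be tested among 24151 genes, and at an adjusted p under 0.05 in limma 2 were higher and 1 lower, where 16.2% of all genes tested were higher, 19.3% lower and 35.5% either. In scaled reads, the 3 cultures of each group did not overlap for 4 members, 2 higher and 2 lower. Of all genes tested, 26.1% were higher without overlap and 27.0% lower. These counts are close to the background. The median log2 difference of the members was 0.10, beside 0.04 over all genes. Median centring over all genes gave 1 higher and 4 lower members, and centring on genes of at least 50 scaled reads gave 3 higher and 1 lower. The authors' deposited table of genes changed at least 2.50-fold holds 2 members, Tnnt2 at a fold of 16.34 higher in wild-type and Tnni1 at a fold of 16.3 higher in c-kitCre.

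By level per kilobase, the order in wild-type-labelled cultures was Tnnt2, Tnnc1, Myl4, Tnni1, Ttn, Tnni3, Actc1, Actn2, Myh6 and Myh7. The first 3 were each apart from the next member in every culture, while Tnni1 to Actn2 overlapped from each to the next and Actn2 lay apart from Myh6. In c-kitCre-labelled cultures, Tnnc1 (147 ± 23.0), Tnni1 (114 ± 18.3) and Tnnt2 (102 ± 2.03) led with overlapping ranges, and Myl4 (17.5 ± 6.72) followed apart from them. Ttn, Tnni3, Actn2 and Actc1 then overlapped, and Myh6 and Myh7 closed the order in both groups.

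The other genes of each family were read beside the members, and several stood far above them. Among the other 4 troponin genes, Tnnt3, the fast skeletal troponin T, rose from 0.976, 0 and 0.636 scaled reads to 28.4, 15.9 and 37.4 (limma, adjusted p = 0.00219), and it was the 1 called of 2 tested. Among 5 other actins, 2 rose and none fell: Acta2, the smooth muscle actin, from 69.3 ± 30.6 to 2044 ± 894 scaled reads and Actg1, a cytoplasmic actin, from 7814 ± 1922 to 15391 ± 1507 (SD, n = 3; limma, adjusted p = 0.00104 and 0.0113). The call of Actg1 was lost without wild-type culture 2 or 3 (highest adjusted p = 0.0554 in limma). Actb, the other cytoplasmic actin, had the highest level, 90277 scaled reads per kilobase in wild-type-labelled cultures and 79272 in the others, beside 2.52 and 2.29 for Actc1.

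Of 3 other alpha-actinins, Actn3, the form of fast skeletal fibres, rose from 7.09 ± 1.91 to 45.0 ± 6.16 scaled reads (SD, n = 3; limma, adjusted p = 0.0012), and Actn1, a non-muscle form, had the highest level, at 2118 and 1321 scaled reads per kilobase beside 2.39 and 3.99 for Actn2. Of 12 other myosin heavy chains, 1 rose, the non-muscle Myh10 (7749 ± 928 to 12387 ± 1156; limma, adjusted p = 0.0146), and its call was lost without wild-type culture 2 or 3 and under centring over all genes, where no heavy chain was higher and 5 were lower. Myh9, another non-muscle form, had the highest level, 6493 and 4088 scaled reads per kilobase, beside 0.43 and 0.75 for Myh6.

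Of 11 other myosin light chains, 7 were tested and 2 rose. Myl9, a regulatory light chain of smooth muscle and non-muscle cells, went from 0.67, 3.59 and 4.87 scaled reads to 249, 164 and 249 (limma, adjusted p = 0.000127), with no overlap. Myl6, the essential light chain of the same cells, went from 6445 ± 653 to 10777 ± 1138 (limma, adjusted p = 0.00972) and lost its call without wild-type culture 2 and under centring over all genes. Myl2, Myl3 and Myl7, the cardiac light chains, had means of 0.14 to 2.28 scaled reads, of which Myl2 alone was tested and did not pass.

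**Figure D3:**
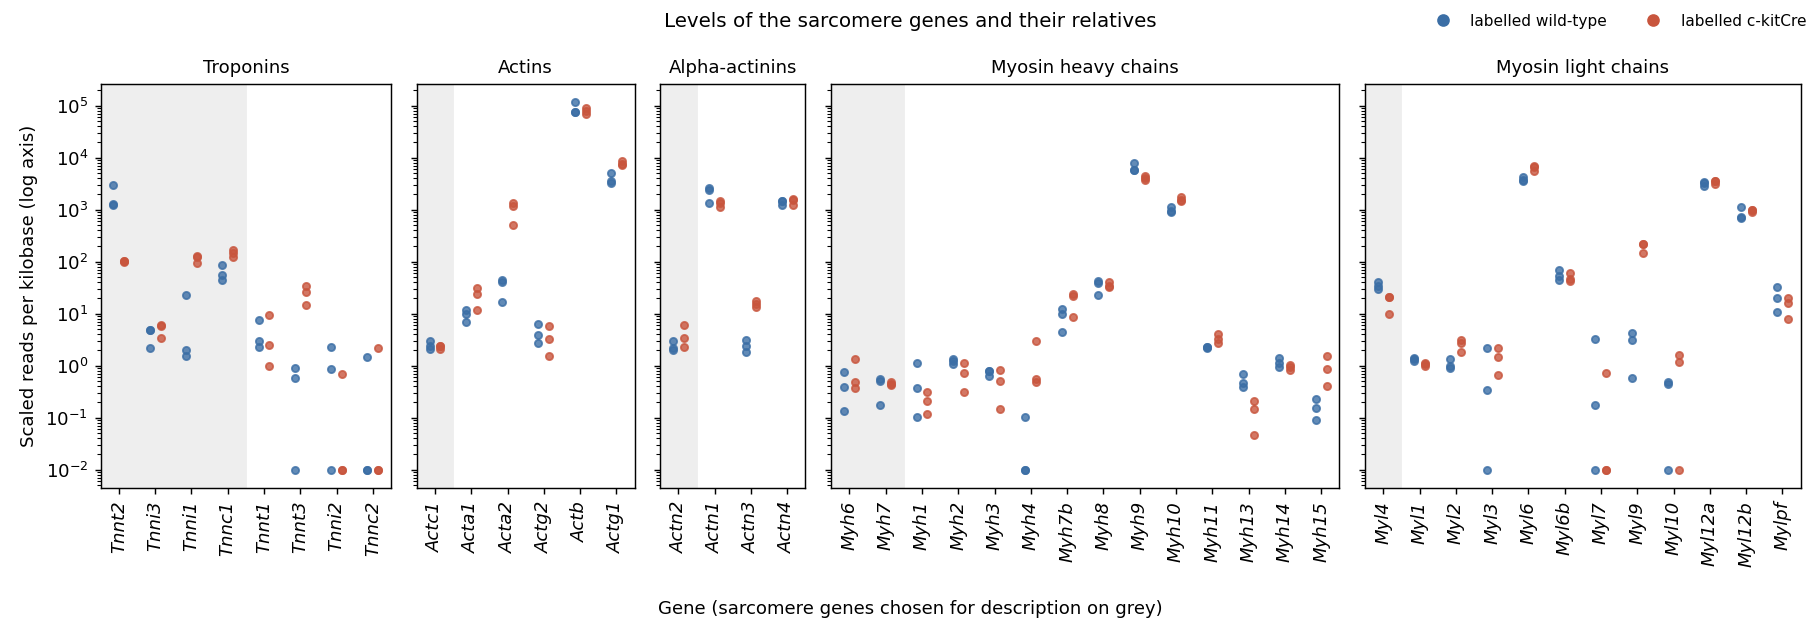
Scaled reads per kilobase (log axis) of the sarcomere genes (grey background) and the other genes of their families in the 3 wild-type-labelled cultures (blue) and the 3 c-kitCre-labelled ones (red), 1 point per culture, with values of 0 drawn at 0.01. Actb, Actn1, Actn4, Myh9, Myh10, Myl6 and Myl12a lie orders of magnitude above Actc1, Actn2, Myh6, Myh7 and Myl4, while Tnnt2 is the highest troponin in the blue points.

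Among 17 other genes of the thin filament, 16 were tested, 9 were called higher and none lower. The median log2 difference was 1.06 beside 0.04 over all genes. Tpm1, Tpm3 and Capza2 were lower without overlap but did not pass (limma, adjusted p = 0.0872, 0.0677 and 0.0570). Of the 9, Capzb lost its call in 5 of 17 alternatives and Nebl in 7. Cap2, an actin-binding protein of striated muscle and brain, rose from 3.43 ± 1.41 to 196 ± 37.8 scaled reads (SD, n = 3; limma, adjusted p = 0.000127). Tmod2, a tropomodulin that caps the slow end of actin filaments and is known from neurons, rose from 16.9 ± 6.46 to 457 ± 73.2. Tpm2, a muscle tropomyosin, rose from 1081 ± 296 to 3435 ± 218, and Neb, the giant nebulin along skeletal thin filaments, from 95.9 ± 27.3 to 427 ± 22.9 (limma, adjusted p = 0.00147 and 0.0017). The list held 7 to 9 higher genes in every alternative. Some alternatives also gave lower genes: 3 with centring over all genes or quantile normalisation, and 2 with a filter at a mean of 10 scaled reads. There was 1 lower gene with each pseudocount, with scaling to summed raw values and with a replicate block. Leaving out wild-type culture 1 or c-kitCre culture 2 gave 1 as well.

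Of 10 tested genes of the thick filament and M-band, 1 rose and 1 fell. Myom3, a myomesin of the M-band, fell from 10.6 ± 3.36 to 0.63 ± 0.30 scaled reads (SD, n = 3; limma, adjusted p = 0.0117), a call lost without wild-type culture 2 or c-kitCre culture 2 or 3. Mylk3, the cardiac myosin light chain kinase, rose from 8.72 ± 2.18 to 16.01 ± 2.26, and its call was lost in 12 of 17 alternatives. Of 6 genes related to titin by their domains, Neb and Nebl rose, Nebl losing its call in 7 of 17 alternatives, and Mylk, the smooth muscle myosin light chain kinase, fell from 1628 ± 605 to 67.4 ± 2.23 (limma, adjusted p = 0.000155).

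In the Z-disc list, 26 of 29 genes were tested, 9 rose and 4 fell. Pdlim1, an adaptor that binds alpha-actinin, rose from 127 ± 32.4 to 973 ± 208 scaled reads, and Palld, the actin-bundling palladin, from 233 ± 100 to 1241 ± 33.9 (SD, n = 3; limma, adjusted p = 0.000469 and 0.00298). Myoz3, a skeletal muscle Z-disc protein, rose from 2.05 ± 1.86 to 27.8 ± 12.6. Ankrd1, a stretch-responsive partner of titin, fell from 8569 ± 3157 to 1679 ± 105 (limma, adjusted p = 0.00241). Leaving out single cultures gave 5 to 7 higher and 2 to 6 lower genes, the 5 without wild-type culture 2, the 6 lower ones without wild-type culture 1 and the 2 without c-kitCre culture 1. Centring over all genes turned the balance to 6 higher and 7 lower, and no filter on low values left 5 higher. Of the other genes that rose, Synpo2l lost its call in 14 of 17 alternatives, Pdlim3 in 7 of 16 and Cryab in 6 of 17.

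Of 14 tested genes for sarcomere assembly and turnover, 4 rose and 2 fell. Trim54, a ring-finger protein that links microtubules to the sarcomere, fell from 322, 296 and 270 scaled reads to 1.83, 0 and 3.35 (limma, adjusted p = 8.8e-05). The small heat shock genes Hspb6 and Hspb2 rose from 304 ± 44.1 to 615 ± 44.8 and from 79.9 ± 1.97 to 323 ± 134 scaled reads (SD, n = 3). Fhod3, a formin that builds cardiac thin filaments, rose from 16.1 ± 2.34 to 65.1 ± 23.0. Leaving out wild-type culture 2 or 3 left 1 lower gene, centring over all genes gave 4 higher and 4 lower, and quantile normalisation gave 6 higher and 3 lower.

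Of 19 tested transcription factors known to drive these genes in the heart, 9 rose and 1 fell. Hand2 rose from 1.97 ± 1.19 to 339 ± 30.6 scaled reads, Tbx5 from 6.50 ± 1.72 to 278 ± 42.9, Tbx20 from 4.01 ± 1.56 to 107 ± 11.7 and Gata6 from 96.6 ± 28.1 to 1431 ± 136 (SD, n = 3; limma, highest adjusted p of the 4 = 0.000161). Without wild-type culture 1, 8 factors were higher and 3 lower, and centring over all genes gave the same counts. Nkx2-5, singled out after its values were seen, stood at 17.2, 5.36 and 7.83 scaled reads and at 2.45, 1.52 and 3.43, without overlap and without passing the test (limma, adjusted p = 0.088). Of 7 skeletal myogenic factors 3 were tested and 1 fell, Pax3, from 755 ± 55.3 to 34.8 ± 8.70 scaled reads.

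**Figure D4:**
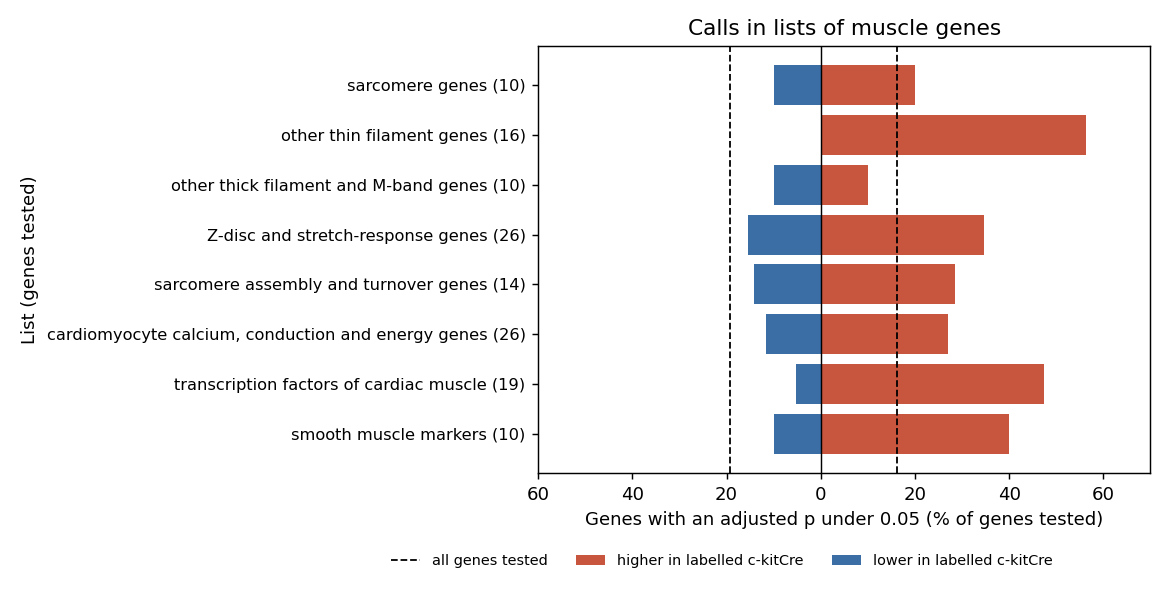
Share of the genes tested in each list that were higher (red, to the right) or lower (blue, to the left) in c-kitCre-labelled cultures at an adjusted p under 0.05 in limma, with the number tested in brackets and the shares over all 24151 genes, 16.2% and 19.3%, as dashed lines. The other thin filament genes hold 9 higher genes of 16 and the cardiac transcription factors 9 of 19.

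Genes for calcium handling, conduction and energy supply of cardiomyocytes gave 7 higher and 3 lower of 26 tested. Kcnj2, an inward rectifier potassium channel, rose from 41.7 ± 3.04 to 586 ± 298 scaled reads, and Slc8a1, the sodium-calcium exchanger, from 12.1 ± 12.7 to 577 ± 92.7 (SD, n = 3; limma, adjusted p = 0.000805 and 0.00126). Fabp3, the fatty acid carrier of heart muscle, rose from 5.72 ± 1.35 to 32.6 ± 8.88, and Eno3, the muscle enolase, fell from 4081 ± 1128 to 723 ± 152. Without c-kitCre culture 2, 10 genes were higher, and centring over all genes gave 6 higher and 6 lower.

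Markers of cell types were read beside these values. Of 14 cardiomyocyte markers, 8 of which are members, 12 were tested, 3 rose (Tnnc1, Ryr2 and Pln) and 1 fell (Tnnt2), and their summed level of 2248 to 4177 scaled reads in wild-type-labelled cultures and 847 to 1044 in the others. The fall of the sum goes with Tnnt2, its highest gene (3608 of 4177 in wild-type culture 1), while more of the called markers rose than fell. Ryr2, the calcium release channel, rose from 2.85 ± 0.93 to 19.4 ± 8.20 scaled reads and Pln, the inhibitor of the calcium pump, from 29.8 ± 2.48 to 117 ± 83.2 (SD, n = 3). Pln lost its call in 8 of 17 alternatives, and without wild-type culture 2 or 3 or c-kitCre culture 1 or 3 the list held 1 higher gene. Centring over all genes turned the balance to 1 higher and 4 lower, and quantile normalisation gave 1 of each. Of 10 smooth muscle markers 4 rose (Tagln, Smtn, Acta2 and Cnn1) and 1 fell (Mylk), with sums of 2658 to 4707 and 9298 to 12287. Tagln went from 26.8 ± 4.72 to 815 ± 297 scaled reads and Smtn from 1416 ± 505 to 7495 ± 747 (SD, n = 3). Of 10 tested fibroblast markers 9 rose and 1, Ddr2, fell, with sums of 50527 to 58455 and 174740 to 243120. Thy1 (3.63 ± 1.01 against 3262 ± 248), Col1a2 (3318 ± 343 against 78574 ± 16325), Lum (1.95 ± 1.69 against 139 ± 27.4) and Dcn (48.7 ± 37.7 against 11248 ± 1874) had the smallest p. Ddr2 stayed lower in all 17 alternatives, while Col1a1 and Col3a1 each lost their call in 2. The part of these markers in the differences of the sarcomere genes was not tested.

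Of 11 tested skeletal muscle markers only Tnnt3 was called, and the sums were 183 to 307 and 289 to 367 scaled reads, mostly Myh8. Beside the counts given here, 16.2% of all genes tested were higher and 19.3% lower. Endothelial markers gave 2 higher of 9 tested (sums of 3090 to 4106 and 3518 to 4451), Cdh5 (3.29 ± 0.72 and 12.8 ± 0.92) and Tie1 (2.69 ± 1.78 and 6.04 ± 0.43). Flt1, which was not called, was the highest of the 9, with a mean of 2888 over the 6 cultures. Tie1 lost its call in 10 of 16 alternatives, and centring over all genes gave 1 higher and 2 lower. Leukocyte markers gave 1 of 4 (163 to 184 and 300 to 517), Csf1r (30.8 ± 7.55 and 141 ± 22.9), with Ptprc at 1.31 and 1.70 as means. Epicardial and mesothelial markers gave 2 higher and 1 lower of 7 (7157 to 8779 and 1108 to 1310). The lower one, Msln (6950 ± 832 and 43.5 ± 22.8), carried the fall of their sum, while Wt1 (8.40 ± 4.61 and 75.6 ± 4.85) and Tbx18 (756 ± 71.5 and 1031 ± 93.7) rose, Tbx18 losing its call in 14 of 17 alternatives. Of 6 mast cell markers, Cpa3 and Mcpt4 were at 0 in all 6 cultures, and Kit alone was tested. Of the 10 genes tied to the cardiac stem cell label 7 were higher (Kit, Tbx5, Tbx20, Pdgfra, Gata4, Isl1 and Mef2c) and 1, Ly6a (3002 ± 272 and 729 ± 45.8), lower. Their sums were 4884 to 6368 and 14546 to 16408 scaled reads. Pdgfra, also on the fibroblast list, was the highest of the 10, with a mean of 4328.5 over the 6 cultures, so the sums do not show a rise shared by all 10.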

How the data were processed

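Total RNA, depleted of ribosomal RNA, was sequenced as paired reads of 100 bp per the labels' protocols, and an RNA integrity number of 8 or more was required. The submitters' processing notes name DESeq and the build mm10. No aligner, annotation or strand setting is given in the sources used here. A raw and a normalized value are deposited for 6 cultures, 3 per genotype, per the file headers.

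The raw values are a deposited signal, not whole counts (18.1% of values under 14 were whole, within 0.002), and were not tested as counts, so no counting interval is given. The normalized values were deposited as log2 values: each raw value was multiplied by its culture's scale factor (0.825 to 1.52), raised to at least 4.41 scaled reads, logged, and lowered by an amount fixed for the gene. This form was exact for the 8369 genes with every raw value over 200 (largest deviation 2.04e-06). Genes whose highest raw value was over 200 held 999 values under 10. Of these, 26.0% lay more than 0.01 above that form, by up to 0.727 log2 units. The authors' deposited fold is a signed score, positive where wild-type is higher.

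Normalized values with that amount added back were tested with limma 3.58.1 (R 4.3.3; eBayes with trend, two-sided, 3 cultures against 3, no covariates). The filter removed 10023 genes, those whose mean was under 1 scaled read and those at the floor throughout, and p-values were Benjamini-Hochberg adjusted over 24151 genes. Lengths and coordinates are from GENCODE (mm10; 32874 IDs matched, 1300 did not), with the longest protein-coding transcript of a gene. Other steps used scipy 1.17.1, numpy 2.4.6, pandas 2.3.3 and, for figures, matplotlib 3.10.9 in Python 3.11.15.

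The members and the gene lists were chosen with earlier results of these data known. Named were all members, up to 4 called genes with the smallest p in each list, and the highest of the other troponin, actin, alpha-actinin, myosin heavy chain and myosin light chain genes; other genes named beside them were chosen after their values were seen. Alternatives were other filters, pseudocounts, scalings, a replicate block, and leaving out each culture.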

Additional observations from a re-analysis of the deposited data

How the results depend on the processing

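Tnnt2 and Tnni1 kept their calls and directions under all 17 alternatives, with adjusted p-values up to 0.00793 and 0.0442 in limma. Of all genes, 8578 were called, and 5688 (without wild-type culture 2) to 9063 when a culture was left out. Of the members, 3 were called, 2 to 3 when a culture was left out, and 5 under median centring over all genes. That centring moved the median log2 difference from 0.04 to -0.31 and the split of calls from 3910 higher and 4668 lower to 2837 and 8535, and centring on genes of at least 50 scaled reads moved them to 0.26 and to 5447 and 3786. Signs turned for uncalled members: with centring over all genes Tnni3 (-0.068) and Myh6 (-0.12); with centring on genes of at least 50 Actc1 (0.11), Myh7 (0.18) and Ttn (0.031); with quantile normalisation Ttn (0.015); with pseudocounts of 0.1, 1 and 5 Myh7 (0.28, 0.17 and 0.062); and on leaving out a culture Myh7 without wild-type culture 2 (0.0015, range -0.082 to 0.0015), Myh6 without c-kitCre culture 2 (-0.080, range -0.080 to 0.38) and Ttn without c-kitCre culture 2 (0.16, range -0.40 to 0.16). Under centring over all genes Actc1 (-0.45) and Myh7 (-0.39) were called lower. Same-numbered cultures did not deviate together (correlations 0.072, -0.02 and 0.159), so the numbers are not taken as pairs; with a replicate block, 8099 genes and 3 members were called. The cause of these changes was not tested. Depth limits Tnni3, Actc1, Myh6 and Myh7, whose group means were under 10 scaled reads.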
